A study of Mus musculus with 6 samples.

Results

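The 10 genes described here encode matricellular proteins or their close partner fibronectin: Postn, Thbs1, Thbs2, Thbs4, Tnc, Sparc, Ccn1, Ccn2, Ccn4 and Fn1. They were chosen by gene symbol, each was read by 1 probe set, and all 10 were found among the 20239 named genes tested. The values come from Affymetrix Mouse Gene 1.0 ST arrays of total RNA from heart ventricles of male 129/Sv mice aged 3.5 weeks. The study compares 3 mice labelled Hspa4-/-, that is, without the cytosolic Hsp110 chaperone HSPA4, with 3 wild-type mice labelled Hspa4+/+. Arrays of the first group are called here by their label, as mutant 1, 2 and 3 (mutant replicates 1, 2 and 3), and those of the second as wild-type replicates 1, 2 and 3. The allele that removes Hspa4 is not described in the sources used here.

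Matricellular proteins are secreted into the extracellular matrix but do not mainly serve as its scaffold. They bind collagens, growth factors and cell surface receptors such as integrins, and so change how cells attach, migrate and respond to signals. In the healthy adult heart most are scarce, and they are known to be made by fibroblasts and other cells when the ventricle is injured or overloaded. Several of them are therefore used as signs of matrix remodelling.

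Hspa4 itself checks the labels, and 1 array went against its label. It read 9.33, 6.63 and 6.75 on the log2 scale on the arrays labelled mutant 1, 2 and 3, against 9.74, 9.50 and 9.48 on wild-type replicates 1, 2 and 3. The array labelled mutant 1 thus differed from the wild-type mean by -0.24. It also read 7.68 for Xist, the RNA that marks the inactive X chromosome of female cells, where the other mutant-labelled arrays read 5.51 and 5.58 and wild type 5.65 to 5.69. The Y-linked genes were present on it at lower values: Uty read 7.92, 8.18 and 8.15 on the arrays labelled mutant 1, 2 and 3, against 8.28 to 8.57 in wild type. Eif2s3y read 7.96, 8.37 and 8.23 on the arrays labelled mutant 1, 2 and 3, against 8.35 to 8.39 in wild type. Whether that array holds a mislabelled sample or mixed RNA was not tested. Each of the 10 genes is therefore tested with all 6 arrays and again without that array, and the 2 comparisons share 5 arrays. The ventricular light chain gene Myl2 read 11.5 to 11.7 on the mutant-labelled arrays and 11.3 to 11.4 in wild type, as in ventricular muscle. The skeletal muscle regulator Myod1 read 6.26 to 6.39 on the mutant-labelled arrays and 6.26 to 6.51 in wild type, near the array medians of 6.42 to 6.48.

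All 10 genes had a positive difference between the mutant-labelled arrays and wild type, and 0 of them passed the test over all genes. With 6 arrays their median log2 difference was 0.26, beside a median of -0.01 over all genes tested, of which 45.8% had a positive difference. Without the array labelled mutant 1 the median was 0.39, beside -0.02 over all genes, of which 43.3% had a positive difference. The test was limma's moderated test with a Benjamini-Hochberg adjusted p under 0.05, which 0% of all genes passed with 6 arrays and 0.44% with 5. At an unadjusted p under 0.05, 6 of the 10 were higher with 6 arrays, where 5.64% of all genes were, and 7 of the 10 with 5 arrays, where 8.55% of all genes were. The mutant-labelled arrays all lay above the wild-type arrays in 3 of the 10 on 6 arrays and in 7 of the 10 on 5. Over all genes those shares were 6.08% and 14.4%.

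**Figure D1:**
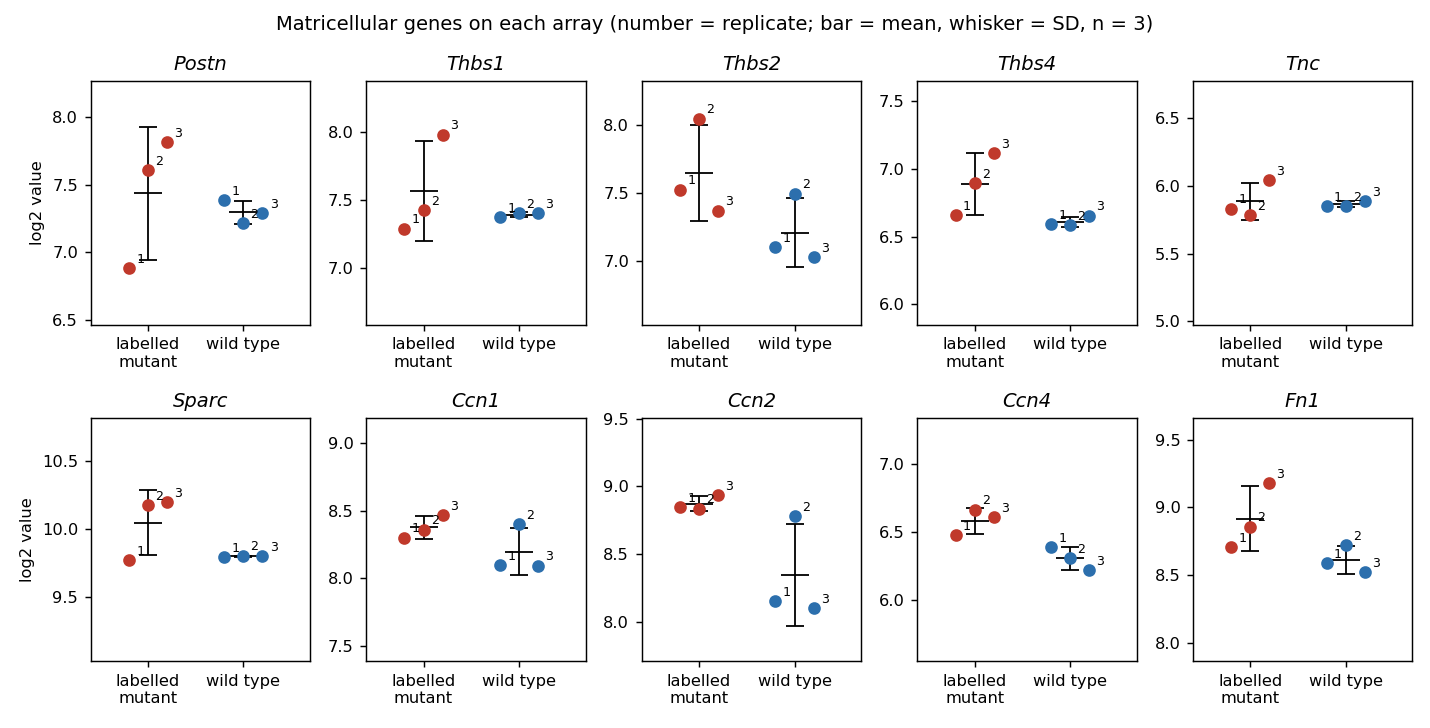
The log2 value of each of the 10 genes on every array, with mutant-labelled arrays left and wild type right in each panel; points are arrays numbered by replicate, the bar is the mean and the whiskers the SD (n = 3), and every panel spans the same range of log2 units. Ccn2, Ccn4 and Thbs4 show no overlap between the groups, while Postn and Sparc are high on the arrays labelled mutant 2 and 3 but not on mutant 1.

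The array labelled mutant 1 was the lowest of its group for 7 of the 10 genes and the highest for 0. It lay above the wild-type mean for 6 genes, with a median difference of 0.07. The array labelled mutant 2 lay above that mean for 9 genes (median 0.30) and mutant 3 for 10 (median 0.45). Mutant 3 was the highest of the 3 for 8 genes.

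The promoters of 4 of the genes with 1 listed start site are printed to show the sequence context of genes that differed in how they behaved across the arrays. They are the 250 bases before the RefSeq start site on build GRCm38.p6, each on the minus strand. Sparc lies at chr11:55420081-55420330, Thbs4 at chr13:92794819-92795068, Thbs2 at chr17:14694263-14694512 and Ccn1 at chr3:145649986-145650235. Capitals mark letters, read on either strand, that match the cores of TEAD factors (CATTCC), AP-1 (TGANTCA), SMAD factors (CAGAC), the TATA box (TATAAA) or heat shock factor (GAANNTTC).
Sparc: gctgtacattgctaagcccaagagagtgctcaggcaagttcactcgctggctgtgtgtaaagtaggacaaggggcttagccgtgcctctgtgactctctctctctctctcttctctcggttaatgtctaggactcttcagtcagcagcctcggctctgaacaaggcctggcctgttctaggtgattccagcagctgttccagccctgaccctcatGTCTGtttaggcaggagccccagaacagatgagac
Thbs4: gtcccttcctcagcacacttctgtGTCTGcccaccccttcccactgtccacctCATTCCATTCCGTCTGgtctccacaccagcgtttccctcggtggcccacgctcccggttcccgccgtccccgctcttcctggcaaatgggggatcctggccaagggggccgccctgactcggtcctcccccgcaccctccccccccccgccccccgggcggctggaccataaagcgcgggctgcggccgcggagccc
Thbs2: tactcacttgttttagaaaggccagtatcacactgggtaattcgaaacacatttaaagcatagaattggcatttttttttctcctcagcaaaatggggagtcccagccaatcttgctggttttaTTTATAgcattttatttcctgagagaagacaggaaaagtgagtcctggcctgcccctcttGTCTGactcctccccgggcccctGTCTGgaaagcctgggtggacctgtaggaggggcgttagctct
Ccn1: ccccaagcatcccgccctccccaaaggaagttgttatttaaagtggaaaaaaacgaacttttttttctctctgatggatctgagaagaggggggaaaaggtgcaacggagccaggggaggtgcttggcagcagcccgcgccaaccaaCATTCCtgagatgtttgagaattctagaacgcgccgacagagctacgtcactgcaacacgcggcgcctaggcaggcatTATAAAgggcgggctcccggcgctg

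The Ccn1 promoter held 1 TEAD match, 103 bases before the start, and a TATA match at 25 bases. The Thbs4 promoter held 2 overlapping TEAD matches at 197 and 192 bases and 2 SMAD matches at 226 and 186 bases. Sparc held 1 SMAD match at 35 bases, and Thbs2 held 2 SMAD matches at 66 and 43 bases and a TATA match at 126 bases. In those of Postn and Tnc, each with 2 listed starts, the second Postn start had a TATA match at 26 bases, and both Tnc starts had a TATA match. Over the 8 starts of these 6 genes, 2 had a TEAD match, 5 a SMAD match, 5 a TATA match and 0 an AP-1 or heat shock factor match. The windows of the Tnc starts overlap, and their TATA matches are the same letters counted from each start. Of 32851 mouse promoters of the same length, 12.6% had a TEAD match, 42.2% SMAD, 12.4% TATA, 6.7% AP-1 and 6.7% heat shock factor. These are letter matches in a window and not measured sites. Thbs1, Ccn2, Ccn4 and Fn1 were not matched to the promoter table.

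The CCN genes encode small secreted adaptors with binding modules for growth factors, proteoglycans and integrins. Ccn2, long known as connective tissue growth factor, is a target of TGF-beta and of the YAP and TEAD factors and a common marker of cardiac stress. It read 8.85, 8.83 and 8.93 on the arrays labelled mutant 1, 2 and 3, against 8.15, 8.78 and 8.10 on wild-type replicates 1, 2 and 3. The groups did not overlap, the array labelled mutant 1 lay with the others of its label, and wild-type replicate 2 lay close to them. The difference was 0.53 (SE 0.16, n = 3 per group; limma, adjusted p = 0.269), or 1.44-fold. Without the array labelled mutant 1 it was 0.54 (SE 0.18, n = 2 against 3; limma, adjusted p = 0.213).

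Wild-type replicate 2 decided the Ccn2 call. Without that array the difference was 0.75 on 5 arrays (SE 0.07; limma, adjusted p = 0.0213) and 0.76 on the 4 arrays that also lack the array labelled mutant 1 (SE 0.08; limma, adjusted p = 0.0059), so Ccn2 passed in both. More of all genes passed in those fits as well, with 112 and 875, beside 0 and 89 when wild-type replicate 2 was kept. The range of Ccn2 over the wild-type arrays was 0.68, and 99.7% of all genes had a smaller one. Jund, an AP-1 subunit of the immediate early genes, was also high on wild-type replicate 2. It read 7.80, 7.89 and 7.87 on the mutant-labelled arrays and 7.26, 7.68 and 7.31 on wild-type replicates 1, 2 and 3. The list of 23 such genes as a whole was little higher there, with means of 7.07, 7.09 and 7.07 on wild-type replicates 1, 2 and 3. Several of them, among them Dusp1 and Ier3, were the highest of wild type on that array, and several others the lowest. The part of what sets that array apart in the Ccn2 values was not tested.

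Ccn1, formerly Cyr61, encodes an integrin-binding protein and is itself induced as an immediate early gene. It read 8.30, 8.36 and 8.47 on the arrays labelled mutant 1, 2 and 3, against 8.10, 8.40 and 8.09 in wild type. The groups overlapped through wild-type replicate 2, which lay 0.30 above the mean of the other wild-type arrays. The difference was 0.18 (SE 0.09; limma, adjusted p = 0.532) on 6 arrays and 0.22 (SE 0.10; limma, adjusted p = 0.379) on 5.

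Ccn4, formerly Wisp1 and a target of Wnt signalling, had the smallest p of the 10 genes with 6 arrays. It read 6.48, 6.67 and 6.61 on the arrays labelled mutant 1, 2 and 3, and 6.39, 6.31 and 6.22 on wild-type replicates 1, 2 and 3. Each mutant-labelled array lay above each wild-type array, and replicate 1 was the lowest of its label. The wild-type values lay under the array medians of 6.42 to 6.48, and by its mean Ccn4 was among the lowest 50% of genes. How far its values lie above background is unknown. The difference was 0.28 (SE 0.08; limma, adjusted p = 0.247) on 6 arrays and 0.33 (SE 0.08; limma, adjusted p = 0.0991) on 5, or 1.26-fold. Over the 6 arrays the genes with the most similar profile were Rbm33, Lox, Stub1, Hdac6 and Zfp664. Their centred log2 values differed from those of Ccn4 by a root mean square of 0.034 to 0.047. Of the other 9 genes described here Sparc was the nearest at 0.10, but it ranked only 692 among all genes compared. Lox, which encodes the lysyl oxidase that cross-links collagen, read 6.42, 6.68 and 6.54 on the mutant-labelled arrays, against 6.26, 6.27 and 6.16 in wild type.

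The thrombospondins are large calcium-binding glycoproteins secreted as trimers or pentamers. Thbs4, the pentameric form known to be raised in loaded heart and to act in the endoplasmic reticulum with the stress factor ATF6, read 6.66, 6.89 and 7.12 on the arrays labelled mutant 1, 2 and 3. In wild type it read 6.59, 6.58 and 6.65. The groups did not overlap, but the array labelled mutant 1 lay just above the highest wild-type array. The difference was 0.28 (SE 0.11; limma, adjusted p = 0.361) on 6 arrays and 0.40 (SE 0.08; limma, adjusted p = 0.0809) on 5.

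Thbs1, an activator of latent TGF-beta that is also carried by platelets, was high on 1 array. It read 7.29, 7.43 and 7.98 on the arrays labelled mutant 1, 2 and 3, against 7.38, 7.40 and 7.40 in wild type. Replicate 1 lay below every wild-type array, replicate 2 lay 0.03 above the wild-type mean and replicate 3 lay 0.59 above it. The difference was 0.17 (SE 0.15; limma, adjusted p = 0.751) on 6 arrays and 0.31 (SE 0.14; limma, adjusted p = 0.342) on 5. Without replicate 3 it was -0.04 on 5 arrays and 0.03 on the 4 left without replicate 1 as well. Of 7 platelet and megakaryocyte markers 0 passed in either comparison. Their mean log2 value was 6.27 to 6.36 on the mutant-labelled arrays and 6.29 to 6.35 in wild type, and 6.27 on replicate 3, which was high for Thbs1. These means lay under the array medians of 6.42 to 6.48, so how well the list shows platelet content is unknown. The part of platelets in the Thbs1 values was not tested.

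Thbs2, the fibroblast relative of Thbs1 that limits matrix breakdown and vessel growth, was high on replicate 2 of both labels. It read 7.52, 8.05 and 7.37 on the arrays labelled mutant 1, 2 and 3, and 7.10, 7.50 and 7.03 on wild-type replicates 1, 2 and 3. Replicate 2 was the highest array in each group, and wild-type replicate 2 lay above the array labelled mutant 3. The difference was 0.44 (SE 0.17; limma, adjusted p = 0.391) on 6 arrays and 0.50 (SE 0.20; limma, adjusted p = 0.282) on 5. There it was 0.16 without the array labelled mutant 2 and 0.84 without the array labelled mutant 3. With replicate number as a block it was 0.44 on 6 arrays (SE 0.08; limma, adjusted p = 0.131) and 0.45 on 5 (SE 0.10; limma, adjusted p = 0.0961).

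The 2 atrial light chain genes were highest on the same array of each label as Thbs2. The mean of the atrial list, which includes the natriuretic peptide gene Nppa, was so only in wild type. The atrial light chain gene Myl4 read 7.39, 7.72 and 7.35 on the arrays labelled mutant 1, 2 and 3, and 7.21, 7.59 and 6.97 on wild-type replicates 1, 2 and 3. Myl7, the other atrial light chain gene, read 6.17, 6.40 and 6.17 on the mutant-labelled arrays and 5.99, 6.18 and 6.11 in wild type. For both genes replicate 2 was the highest array of each label. The 8 atrial markers measured averaged 7.15, 7.39 and 7.42 (log2) for mutant 1, 2 and 3 as labelled, and 6.99, 7.16 and 6.94 on wild-type replicates 1, 2 and 3. The array labelled mutant 3 was thus the highest of its label for the list, while Thbs2 was lowest there among the mutant-labelled arrays. Wild-type replicate 2 was the highest wild-type array for both the list and Thbs2. Of these 8, 1 passed on 5 arrays, the natriuretic peptide gene Nppa (limma, adjusted p = 0.0127), which ventricular muscle also raises under stress. Nppa read 9.43, 10.5 and 11.5 on the arrays labelled mutant 1, 2 and 3, and at most 8.94 in wild type. Its high value on the array labelled mutant 3 enters the list mean and alone puts that array above mutant 2 there. With Nppa left out, the rest of the list averaged highest on replicate 2 of each label, as Thbs2 did. The part of atrial tissue in the Thbs2 values was not tested.

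Sparc and Postn encode collagen-binding proteins of the fibroblast. Sparc, or osteonectin, aids procollagen handling at the cell surface. It read 9.77, 10.17 and 10.20 on the arrays labelled mutant 1, 2 and 3, and 9.79, 9.80 and 9.80 on wild-type replicates 1, 2 and 3. Replicate 1 lay 0.03 below the wild-type mean, and replicates 2 and 3 lay 0.38 and 0.40 above it. The difference was 0.25 (SE 0.11; limma, adjusted p = 0.438) on 6 arrays and 0.39 (SE 0.07; limma, adjusted p = 0.0571) on 5, or 1.31-fold, the smallest adjusted p of the 10 genes there. The wild-type range of Sparc was 0.012, and 0.494% of all genes had a smaller one. Its call on 5 arrays changed with small choices: it passed with the lowest 25% of genes left out (limma, adjusted p = 0.0476), with the lowest 50% left out (limma, adjusted p = 0.0451), with array weights (limma, adjusted p = 0.0336) and without wild-type replicate 2 (limma, adjusted p = 0.0282). More of all genes passed in each of those fits as well, with 156, 167, 321 and 875 in that order, beside 89 in the main fit. Over the alternatives on 5 arrays that kept both mutant-labelled arrays, the adjusted p of Sparc lay between 0.0282 and 0.228 (limma).

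Sparc lies on chromosome 11, as does Hspa4, with 37 tested genes between them in the RefSeq gene order of GRCm38.p6. No other of the 10 genes is on that chromosome. On 5 arrays 0 of those 37 genes passed (limma), their median difference was -0.03, and their differences lay between -0.39 and 0.43. In 6 of them the mutant-labelled arrays were higher without overlap and in 6 lower, beside 14.4% and 18.9% of all genes. On the other side of Hspa4, Sec24a, which encodes a subunit of the COPII vesicle coat and is named here after its values were seen, fell by 0.53 on 5 arrays (limma, adjusted p = 0.0413). Of the 100 nearest tested genes on each side of Hspa4, no other passed on 5 arrays, where 0.44% of all genes did. A difference carried by the chromosome segment around Hspa4 cannot be told apart from one that follows the loss of Hspa4 in these groups.

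**Figure D2:**
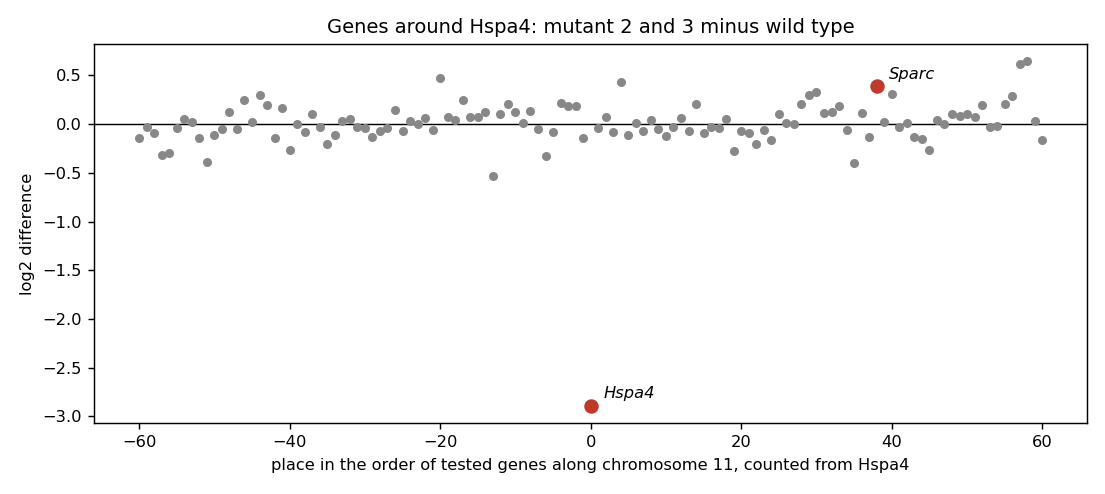
The log2 difference of the arrays labelled mutant 2 and 3 minus wild type for the tested genes around Hspa4, in the order in which they lie on chromosome 11. Hspa4 stands at -2.89 and Sparc, with 37 genes in between, at 0.39, and most of the other genes lie near 0.

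Postn encodes periostin, which is bound to collagen and integrins and is the best known marker of activated cardiac fibroblasts. It read 6.88, 7.61 and 7.81 on the arrays labelled mutant 1, 2 and 3, against 7.39, 7.21 and 7.29 in wild type. Replicate 1 lay 0.41 below the wild-type mean, lower than every wild-type array, while replicates 2 and 3 lay 0.31 and 0.52 above it. The 6 arrays therefore gave a difference of 0.14 (SE 0.20; limma, adjusted p = 0.863). Without replicate 1 it was 0.42 (SE 0.09; limma, adjusted p = 0.0823), or 1.33-fold.

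Fn1 encodes fibronectin, the matrix glycoprotein that integrins assemble into fibrils. It read 8.71, 8.86 and 9.18 on the arrays labelled mutant 1, 2 and 3, and 8.59, 8.72 and 8.52 on wild-type replicates 1, 2 and 3. The only overlap was wild-type replicate 2, which lay just above the array labelled mutant 1. The difference was 0.31 (SE 0.11; limma, adjusted p = 0.360) on 6 arrays and 0.41 (SE 0.11; limma, adjusted p = 0.132) on 5. Itga5, an integrin subunit that binds fibronectin, read 8.09, 8.04 and 8.37 on the mutant-labelled arrays and 7.90, 7.97 and 7.69 in wild type, a difference of 0.31 (SE 0.10; limma, adjusted p = 0.308). Another such subunit gene, Itga4, was lower without overlap, with 6.28, 6.34 and 6.44 against 6.66, 6.51 and 6.54. Of the 16 receptor genes listed, 7 had a positive and 9 a negative difference on 6 arrays.

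Tnc encodes tenascin C, an anti-adhesive protein known for its sharp rise in injured heart. It read 5.83, 5.78 and 6.04 on the arrays labelled mutant 1, 2 and 3, and 5.85, 5.85 and 5.89 in wild type. Replicates 1 and 2 lay below every wild-type array and replicate 3 above them. The difference was 0.02 (SE 0.08; limma, adjusted p = 0.954) on 6 arrays and 0.05 (SE 0.09; limma, adjusted p = 0.838) on 5, and it was negative on both without replicate 3. Tnc is the member nearest 0, and its values lay under the median of every array, so the room for a lower value is unknown.

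**Figure D3:**
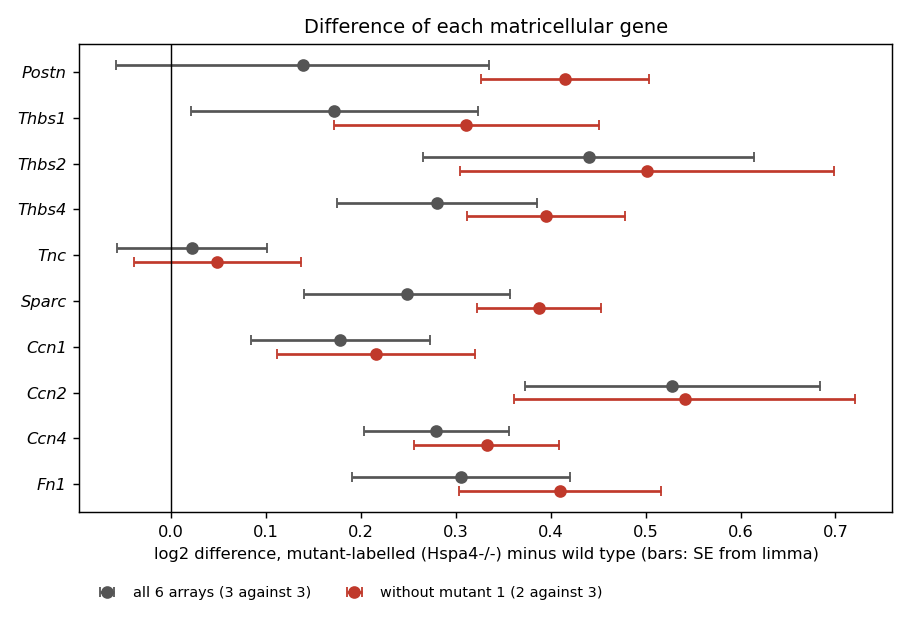
The log2 difference of each of the 10 genes, mutant-labelled arrays minus wild type, with all 6 arrays in grey and without the array labelled mutant 1 in red; bars are limma's SE. Ccn2 has the largest difference on both, at 0.53 and 0.54, Tnc is near 0, and Postn moves most when the array is left out.

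The other matricellular genes had median differences near 0. Of the 20 measured, 0 passed in either comparison (limma), with 2 higher and 2 lower at an unadjusted p under 0.05 in each. Of all genes 5.53% were lower at that level with 6 arrays and 6.36% with 5. With 6 arrays 10 had a positive difference, with a median of -0.01, and with 5 arrays 7 did, with a median of -0.04. Ogn, a small leucine-rich proteoglycan also called osteoglycin or mimecan, read 7.17, 7.32 and 7.19 on the mutant-labelled arrays, against 7.66, 7.46 and 7.58 in wild type. Its difference was -0.34 (SE 0.08; limma, adjusted p = 0.220), and the groups did not overlap. Smoc2, a relative of Sparc, differed by -0.19 and the tenascin gene Tnxb by 0.23 (limma, adjusted p = 0.390 and 0.397). Whether the 10 genes differ from these 20 was not tested.

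Receptors of matricellular proteins went both ways, and 0 of 16 passed in either comparison (limma). Their median difference was -0.02 on 6 arrays and -0.04 on 5. Ddr2, a collagen receptor of fibroblasts, differed by -0.28 (SE 0.06; limma, adjusted p = 0.213), with 7.71, 7.77 and 7.80 on the mutant-labelled arrays and 8.09, 8.03 and 8.01 in wild type. Cd36, a thrombospondin receptor and fatty acid carrier, differed by -0.19 (SE 0.06; limma, adjusted p = 0.304).

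Among collagens and matrix assembly genes 10 of 11 had a positive difference in each comparison, beside 45.8% and 43.3% of all genes. Of the 11, 0 passed (limma), with a median of 0.12 on 6 arrays and 0.14 on 5. The mutant-labelled arrays were higher without overlap in 4 of them in each comparison, beside 6.08% and 14.4% of all genes. Col4a2, a basement membrane collagen, differed by 0.39 (SE 0.12; limma, adjusted p = 0.276) and Lox by 0.32 (SE 0.08; limma, adjusted p = 0.234) on 6 arrays. Of the 14 TGF-beta signalling genes 0 passed (limma), with a median of 0.04 on 6 arrays and 0.07 on 5. The ligand gene Tgfb2 was high on the same arrays as Sparc, with 6.38, 6.74 and 6.85 on the arrays labelled mutant 1, 2 and 3 and 6.44, 6.42 and 6.40 in wild type. Its difference without replicate 1 was 0.37 (SE 0.07; limma, adjusted p = 0.0651).

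Of 17 YAP and TEAD genes and targets, 0 passed with 6 arrays and 1 with 5, the cardiac ankyrin repeat gene Ankrd1, which rose 1.68-fold (limma, adjusted p = 0.0329). The list's median was 0.06 on 6 arrays and 0.08 on 5. Its mean log2 value was 8.08 to 8.16 on the mutant-labelled arrays, against 7.99, 8.10 and 7.94 on wild-type replicates 1, 2 and 3, so wild-type replicate 2 was high here as for Ccn1 and Ccn2. Of 23 immediate early genes 0 passed (limma), with a median of 0.06 on 6 arrays and 0.05 on 5. Of 18 chaperones of the endoplasmic reticulum and ATF6 branch genes, which Thbs4 is linked to, 0 passed (limma) and 14 had a negative difference on 6 arrays, with a median of -0.12, and Hspa5 differed by -0.39 (SE 0.13; limma, adjusted p = 0.315).

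Markers of fibroblasts, the main source of these proteins in the heart, overlapped between the groups in their mean level, with and without the array labelled mutant 1. Of 10 fibroblast markers 0 passed in either comparison (limma), and their mean log2 value was 8.22 to 8.39 on the mutant-labelled arrays and 8.21 to 8.31 in wild type. Of 9 activated fibroblast markers 0 passed, and their mean was 7.04, 7.16 and 7.22 on the arrays labelled mutant 1, 2 and 3, against 7.02 to 7.12 in wild type. This list overlapped on 6 arrays but lay above every wild-type array on the arrays labelled mutant 2 and 3. Of 8 smooth muscle and pericyte markers 0 passed, with 7.71 to 7.85 on the mutant-labelled arrays and 7.62 to 7.68 in wild type, and Pdgfrb, a receptor of pericytes and fibroblasts, differed by 0.29 (limma, adjusted p = 0.245). Of 7 epicardial and mesothelial markers 0 passed on 6 arrays and 2 fell on 5, where 0.208% of all genes fell and 0.232% rose. They were Upk3b by 0.78 and Upk1b by 0.90 (limma, adjusted p = 0.0173 and 0.0330). Of 9 macrophage markers 0 passed, with 7.41 to 7.46 on the mutant-labelled arrays and 7.53 to 7.63 in wild type. Of 8 endothelial markers 0 passed, with 8.92 to 9.06 on the mutant-labelled arrays and 8.83 to 8.91 in wild type. Of 8 ventricular cardiomyocyte markers 0 passed, with 12.12 to 12.18 on the mutant-labelled arrays and 11.96 to 12.05 in wild type. The mean levels of the endothelial, cardiomyocyte and smooth muscle lists were thus higher on every mutant-labelled array than in wild type, and that of macrophages lower. The part of these cells in the 10 genes' values was not tested, and in bulk tissue a change in the number of cells of a type and a change in RNA per cell cannot be told apart.

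**Figure D4:**
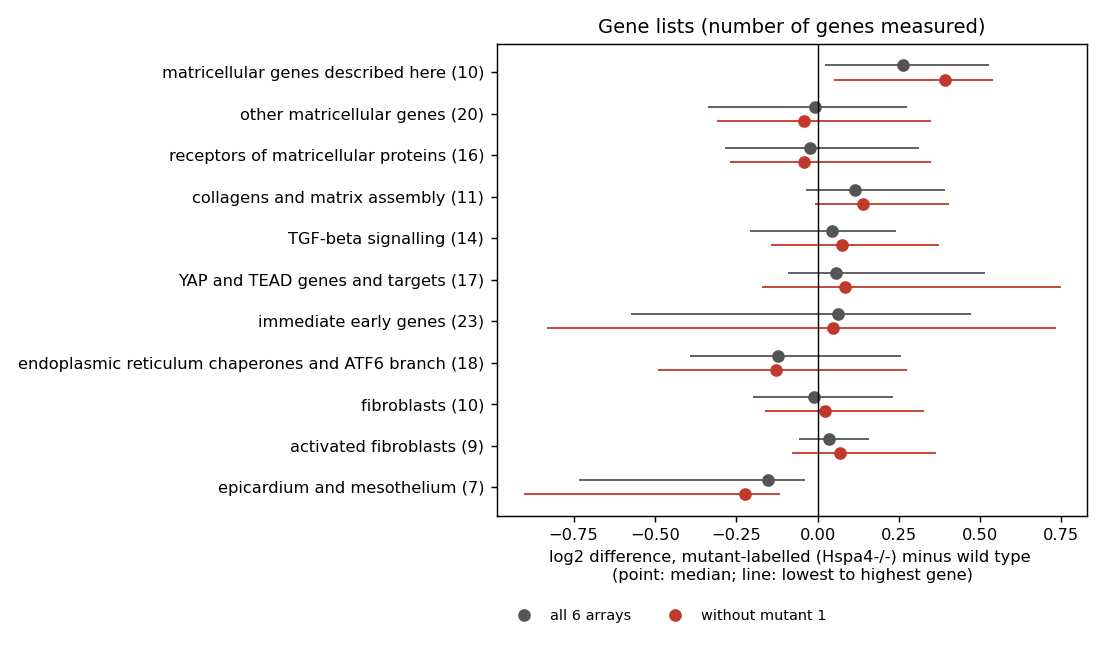
The median log2 difference (point) and the lowest and highest gene (line) of each gene list, mutant-labelled arrays minus wild type, with all 6 arrays in grey and without the array labelled mutant 1 in red. The 10 matricellular genes described here have medians of 0.26 and 0.39, and the 20 other matricellular genes have medians of -0.01 and -0.04.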

How the data were processed

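The deposited table holds 1 log2 value per probe set and array for 6 arrays. Per the submitters' processing notes, the authors used R 2.13.0 with affy for these deposited log2 values. The handling of background, normalisation and probe summary is not stated in those notes. Of 21225 probe sets, 20239 carried 1 gene symbol in the probe annotation, 0 several and 986 none. Gene numbers matched a RefSeq table of GRCm38.p6 for all 20239, and each gene had 1 probe set.

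Values were used as deposited. Groups and replicate numbers came from the titles. All named genes were fitted with limma 3.58.1 in R 4.3.3 (lmFit, eBayes), and p-values were adjusted by Benjamini-Hochberg over all 20239 with a threshold of 0.05. The fit was tested on simulated data. Differences are the mutant-labelled mean minus that of wild type, and SE is limma's moderated SE. The comparison without the array labelled mutant 1 was planned because earlier results had shown its Hspa4 level. The 10 genes and all lists were chosen with earlier results of these data known, so counts over them are descriptions. Genes named beside the 10 are Hspa4, Xist, Uty and Eif2s3y as label checks, and list genes among the 3 with the smallest p of their list on 6 arrays. The 5 nearest to Ccn4 by root mean square distance and list genes that passed are named too. Sec24a and Itga4 were named outside these rules, after their values were seen. The number of arrays limits the precision, and signal over background is unknown.

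No pairing by replicate number was seen: same-numbered deviations from the group means correlated at -0.17, 0.09 and -0.25 over all genes. Unlike-numbered ones lay between -0.16 and 0.33. So few arrays cannot exclude a pairing. List members without a named probe set were not analysed here. Alternatives were quantile normalisation, subtracted medians, low-value filters, array weights, a trended prior, a replicate block and leaving out each array.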

Additional observations from a re-analysis of the deposited data

How the results depend on the processing

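On 6 arrays, 123 of 128 single-gene values of the 10 genes under the alternatives kept their direction and their side of the threshold, and on 5 arrays 112 of 118 did. The exceptions were the passes of Ccn2 and Sparc given above and sign changes near 0 that passed nowhere: Postn, Thbs1 and Tnc at -0.05, -0.04 and -0.06 on 6 arrays without the array labelled mutant 3, Tnc at -0.003 with array weights, and Tnc at -0.08 on 5 arrays without replicate 3. The median of the 10 genes lay between 0.17 and 0.31 on 6 arrays, apart from 0.39 without the array labelled mutant 1, and between 0.30 and 0.45 on 5.

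Of the 10 genes, 0 to 1 passed on 6 arrays when each array was left out, and 0 under the other settings. On 5 arrays, 0 to 2 passed when each array was left out, and 1 passed with either low-value filter and 1 with array weights (Sparc). Over all genes, 0 passed on 6 arrays, 2 with either low-value filter, 115 with array weights, and 0 to 112 when each array was left out. The 89 genes passing on 5 arrays became 35 with subtracted medians, 156 and 167 without the lowest 25% and 50% of genes, 321 with array weights, and 2 to 875 when each array was left out. The counts of 112 and 875 were those without wild-type replicate 2. The cause of these changes was not tested. With the replicate block, 2 genes passed on 6 arrays and 134 on 5, and 0 of the 10 in both, so the block changed no call among them. Without the lowest 50% of genes, 8 of the 10 were in the fit, since Tnc and Ccn4 were left out. Planned pseudocounts and means over probe sets were not run, since the values were log2 and each gene had 1 probe set.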
